A study of Mus musculus with 29 samples.

Results

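The results below describe 8 genes that mark developmental timing, Lin28a, Lin28b, Trim71, Hmga1, Hmga2, Igf2bp1, Igf2bp2 and Igf2bp3, chosen by name from the 25239 genes listed in the count tables. The 8 RNA-seq libraries came from mouse embryos at stage E11.5, in 4 groups of 2 pools: wild-type forebrain, forebrain with the hs267-853 knockout, wild-type midbrain, and midbrain with the hs654 knockout. Each knockout lacks an enhancer named by its hs number, and the labels used here do not say whether hs267-853 stands for 1 or 2 elements. Each library was made from poly(A) RNA of tissue pooled over several embryos of the same genotype, and strain, zygosity and sex are not given. Nothing in the labels says whether the 2 pools of a group came from separate litters, so p-values measure only the spread between these pools. The study's Hi-C libraries (21 samples) were left aside.

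These genes belong to a pathway first found in worms, where lin-28, let-7 and lin-41 set the order of developmental stages. In vertebrates LIN28A and LIN28B are RNA-binding proteins that block the maturation of the let-7 microRNAs, and let-7 in turn lowers the messenger RNAs of Lin28, Hmga2, Trim71 and the Igf2bp genes. The pathway is high in early embryonic and fetal progenitors and is turned down as neural development proceeds. HMGA1 and HMGA2 are chromatin proteins that bind the minor groove of AT-rich DNA, IGF2BP1 to IGF2BP3 bind and stabilise messenger RNAs including that of Igf2, and TRIM71 is the vertebrate relative of LIN-41, an RNA-binding protein with a RING domain.

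The sequences that join these genes are those of let-7, shown here because the members are regulators or targets of it. In the RefSeq table of build GRCm38.p6, the same assembly as the mm10 named in the submitters' processing notes, 13 mature miRNA loci share the let-7 seed. The seed, bases 2 to 8 from the 5′ end, is in capitals.
mmu-let-7a-5p: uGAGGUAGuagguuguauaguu
mmu-let-7d-5p: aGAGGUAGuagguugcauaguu
mmu-let-7g-5p: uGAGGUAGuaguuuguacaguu
mmu-let-7i-5p: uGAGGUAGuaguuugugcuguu
mmu-miR-98-5p: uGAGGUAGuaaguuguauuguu

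LIN28 proteins are known to grip the loop of the let-7 precursor at the letters GGAG. Among 11 hairpins of this seed group with both arms listed, 8 held GGAG between the arms. The hairpin of Mirlet7g held it (capitals) and the hairpin of Mirlet7b did not. The match describes the letters and was not read as binding.
Mirlet7g: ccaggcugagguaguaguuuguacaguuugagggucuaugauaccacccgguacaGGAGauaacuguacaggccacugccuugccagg
Mirlet7b: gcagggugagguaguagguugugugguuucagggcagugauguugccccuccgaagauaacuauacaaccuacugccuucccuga

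Total counts in genes ranged from 9051632 to 18024406 per library, and 3 counts, the limit that a count of 0 allows, equalled 0.170 to 0.328 CPM (counts scaled to library size with TMM factors). All 8 members were among the 15383 genes that passed the low-count filter. Markers placed the libraries with their labelled tissues: 4 of 4 forebrain markers were higher and 4 of 4 midbrain markers lower in wild-type forebrain, and En2 had 0 counts in all 4 forebrain libraries (3 counts there are the limit given above). On the second principal component, which held 6.33% of the variance, replicate 1 of the hs267-853 knockout scored -33.7 and the other 7 libraries -1.66 to 18.3. That library also had the lowest summed mesenchyme markers of its tissue, 1242 CPM, against 1745 to 2193 CPM in the other 3 forebrain libraries.

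Hmga2 carried by far the widest tissue difference among the 8 genes, and it did so in wild-type and knockout libraries alike. Hmga2 and Igf2bp2 were higher in forebrain, while Lin28a and, in wild type, Lin28b were lower there. The members therefore did not shift in 1 direction between the tissues. Igf2bp3 and Trim71 passed the test in neither set of libraries, and Hmga1 and Igf2bp1 passed it only in the knockout libraries. By edgeR's quasi-likelihood test at an adjusted p of 0.05, 4 of 8 members passed in wild type, 2 higher and 2 lower. Of all genes tested 29.6% passed, 14.3% higher and 15.3% lower. The wild-type libraries of the tissues did not overlap for 6 of 8 members, 4 above and 2 below in forebrain, and for 65.9% of all genes, 33.2% above and 32.7% below. The members' median log2 fold change was 0.042, and that of all genes was 0.0012.

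**Figure D1:**
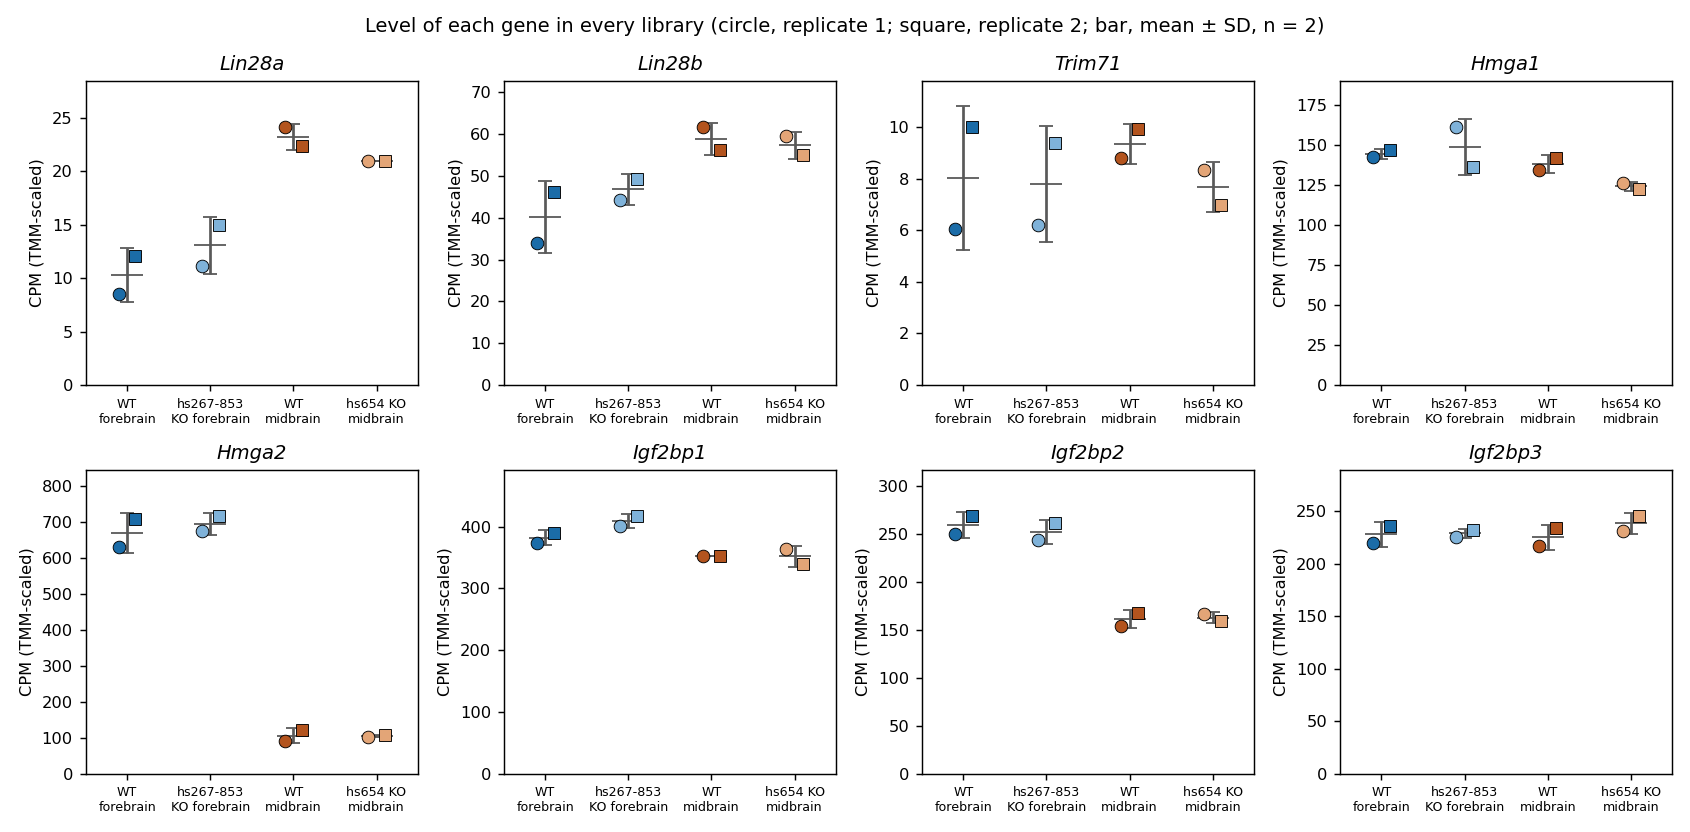
Level of each gene in CPM (vertical axes, from 0) in the 8 libraries, by group. Circles and squares are replicates 1 and 2 and bars are mean ± SD (n = 2). Hmga2 lies between 629 and 715 CPM in the 4 forebrain libraries and between 90.5 and 121 CPM in the 4 midbrain libraries.

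Hmga2, which lies on chr10:120361268-120476469 (minus strand), encodes the fetal HMGA protein known to sustain young neural stem cells. It measured 629 and 707 CPM in wild-type forebrain and 90.5 and 121 CPM in wild-type midbrain. The knockout libraries gave 673 and 715 CPM in forebrain and 103 and 107 CPM in midbrain. Every forebrain library lay above every midbrain library, and the range within a tissue was small beside that gap. In bulk tissue, fewer cells of a type and less RNA per cell cannot be told apart. The wild-type difference was 6.33-fold (log2 fold change 2.66, SE 0.107, adjusted p = 2.06e-09 in edgeR). In the knockout libraries, which share no sample with the wild-type comparison and differ in the deleted enhancer as well as in tissue, it was 6.61-fold (log2 2.72, SE 0.108, adjusted p = 2.14e-09). Both comparisons used the same estimate of the spread. Among 5141 genes with a mean of at least 50 CPM, the log2 fold change of Hmga2 was the 9th highest in wild type and the 8th highest in the knockout libraries. The pseudogene Hmga2-ps1, on chromosome 1, did not share this level: it held 0.183% to 1.33% of the Hmga2 count. Its forebrain libraries, at 1.25 to 1.70 CPM, also lay above its midbrain libraries, at 0.860 to 1.20 CPM. These values rest on 8 to 25 counts per library.

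Hmga1, the broadly expressed paralogue (chr17, plus strand), had nearly flat levels. It measured 143 and 147 CPM in wild-type forebrain and 134 and 142 CPM in wild-type midbrain, a log2 difference of 0.067 (SE 0.0769, adjusted p = 0.559 in edgeR). The knockout libraries gave 161 and 136 CPM in forebrain and 126 and 122 CPM in midbrain. Here it was 1.20-fold higher in forebrain and past the test (log2 0.26, SE 0.0778, adjusted p = 0.0236). Without replicate 1 of the hs267-853 knockout, the library with the highest Hmga1 level, the log2 difference was 0.14 with an adjusted p of 0.196. The call was also lost without replicate 1 or 2 of the hs654 knockout (adjusted p = 0.105 and 0.144) and in a fit of these 4 libraries alone (0.0586), where the log2 values were 0.26, 0.24 and 0.25. Hmga1 has a near-identical copy, Hmga1b, on chromosome 11. The Hmga1b row held 92.9% to 96.9% of the Hmga1 count in each library, so the 2 rows cannot be taken as separate measurements and the level of Hmga1 is uncertain.

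Lin28a (chr4:134003330-134019196, minus strand) was the member with the strongest shift toward midbrain. It measured 8.48 and 12.1 CPM in wild-type forebrain against 24.1 and 22.4 CPM in wild-type midbrain. Knockout values were 11.2 and 14.9 CPM in forebrain and 21.0 CPM in both midbrain pools. All 4 forebrain libraries lay below all 4 midbrain libraries. Lin28a was 2.27-fold lower in wild-type forebrain (log2 -1.18, SE 0.178, adjusted p = 0.000286 in edgeR). In the knockout libraries it was 1.61-fold lower (log2 -0.69, SE 0.176, adjusted p = 0.00991). That second call was lost without replicate 1 of the hs267-853 knockout (log2 -0.49, adjusted p = 0.0625). It was also lost without replicate 1 or 2 of the hs654 knockout (adjusted p = 0.0630 and 0.0612), where the log2 values stayed at -0.70 and -0.69.

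Lin28b (chr10:45376617-45486314, minus strand), the paralogue known to persist later in development, had the same order of tissues over a smaller range. It measured 34.1 and 46.3 CPM in wild-type forebrain and 61.6 and 56.2 CPM in wild-type midbrain. The knockout libraries gave 44.2 and 49.4 CPM in forebrain and 59.6 and 55.1 CPM in midbrain, so again the tissues did not overlap. Lin28b was 1.47-fold lower in wild-type forebrain (log2 -0.56, SE 0.125, adjusted p = 0.00458 in edgeR). Without replicate 1 of wild-type forebrain, the lowest of the 8 libraries for this gene, the log2 value was -0.35 and the adjusted p 0.0573. In the knockout libraries the log2 value was -0.30 (SE 0.125), with an adjusted p of 0.0940 that did not pass.

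Trim71 (chr9:114511268-114564369, minus strand), itself a classic let-7 target, varied between pools over ranges that overlapped between the tissues. Wild-type forebrain gave 6.04 and 9.98 CPM and knockout forebrain 6.18 and 9.36 CPM. Wild-type midbrain gave 8.79 and 9.90 CPM and knockout midbrain 8.35 and 6.99 CPM. The overlap held in wild type and in the knockouts, and the count was 64 to 143 per library. The wild-type log2 difference was -0.23 with a 95% interval of -0.78 to 0.33 (adjusted p = 0.550 in edgeR). The knockout libraries gave a log2 difference of 0.0061 (SE 0.265).

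Among the Igf2bp genes, Igf2bp2 passed the test between the tissues in both sets of libraries, Igf2bp1 in the knockout libraries and Igf2bp3 in neither. Igf2bp2 (chr16:22059009-22163299, minus strand) measured 250 and 269 CPM in wild-type forebrain and 154 and 168 CPM in wild-type midbrain. The knockout values were close to these, 244 and 261 CPM in forebrain and 167 and 159 CPM in midbrain. Every forebrain library lay above every midbrain library. Igf2bp2 was 1.61-fold higher in wild-type forebrain (log2 0.69, SE 0.0659, adjusted p = 5.25e-06 in edgeR) and 1.55-fold higher in the knockout libraries (log2 0.63, SE 0.0664, adjusted p = 1.33e-05).

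Igf2bp1 (chr11:95957163-96005944), also called ZBP1 for its part in carrying beta-actin messenger RNA, differed by little. It measured 373 and 390 CPM in wild-type forebrain and 352 CPM in both wild-type midbrain pools, a log2 difference of 0.12 (SE 0.0541, adjusted p = 0.129 in edgeR). The knockout libraries gave 401 and 417 CPM in forebrain and 364 and 340 CPM in midbrain. Every forebrain library lay above every midbrain library for this gene too. The share of all genes with such a separation over both genotypes was not counted, here or for the other members. In wild type alone 33.2% of all genes lay wholly above in forebrain, and in the knockout libraries 33.4%. The knockout difference passed the test at 1.16-fold (log2 0.22, SE 0.0543, adjusted p = 0.00903), and the call was lost without replicate 2 of the hs654 knockout (log2 0.17, adjusted p = 0.130). Igf2bp3 (chr6:49085218-49215469, minus strand) was the flattest member. Its 8 libraries lay between 217 and 245 CPM, with log2 tissue differences of 0.017 (95% interval -0.12 to 0.15) in wild type and -0.059 (-0.19 to 0.076) in the knockout libraries.

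**Figure D2:**
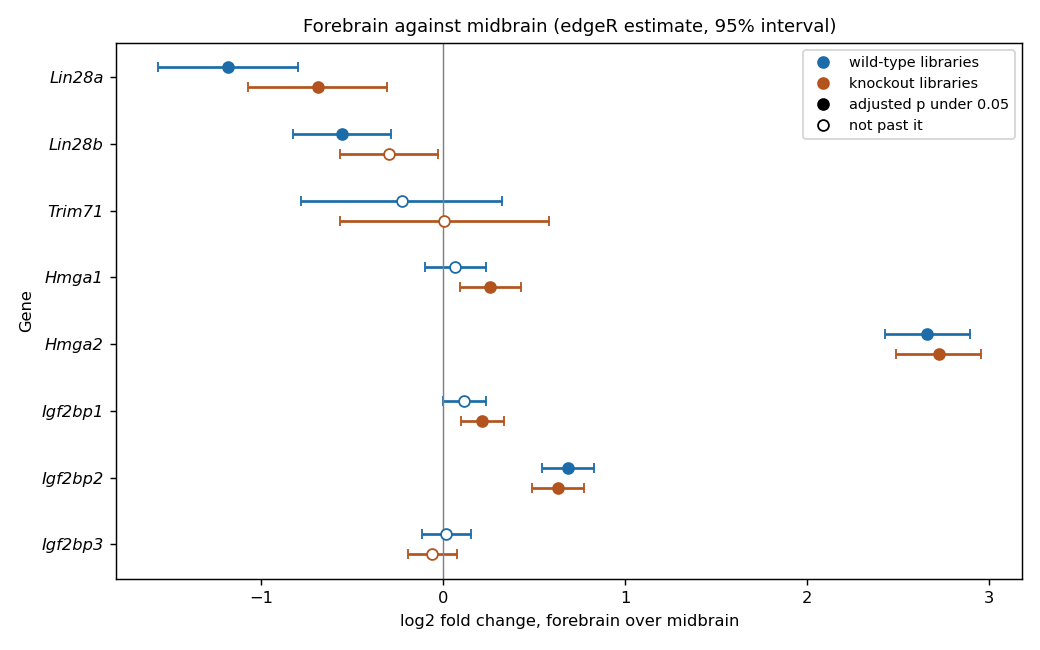
log2 fold change of forebrain over midbrain (horizontal axis) for each gene, with its 95% interval, in wild-type and in knockout libraries. Filled points passed an adjusted p of 0.05 in edgeR. Hmga2 stands at 2.66 and 2.72, and the Lin28 genes lie below 0 in both sets.

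Of the 8 members 5 passed in the knockout libraries, 4 higher and 1 lower in forebrain, against 29.4% of all genes, 14.6% higher and 14.8% lower. When each library was left out in turn, between 2 and 6 members passed. Without replicate 1 of the hs267-853 knockout, which stood apart, Hmga2 (log2 2.77), Igf2bp2 (0.68) and Igf2bp1 (0.25) passed. The knockout libraries of the tissues did not overlap for 4 members above and 2 below, and for 64.4% of all genes, 33.4% above and 31.0% below. Whether the tissue difference itself differed between wild-type and knockout libraries was tested with an interaction term. No member passed: 0 of 8 in edgeR, DESeq2 and limma-voom, against 0.00650% of all genes in edgeR. At an unadjusted p under 0.05 in edgeR there were 0 of 8 members and 619 of 15383 genes. The largest such value was that of Lin28a, -0.50 on the log2 scale (wild type minus knockout, SE 0.251, 95% interval -1.04 to 0.047).

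The members that separate the tissues did not all hold the same motifs before their starts. The 250 bases before the RefSeq start are shown for the 4 genes called in wild type, 5′ to 3′ on the strand of the gene, with matches in capitals. Igf2bp1 has no entry in the promoter table. The motifs searched on both strands were CACGTG (an E-box), GGGCGG (a GC box), CCAAT and TATAAA, and 6.02%, 32.7%, 33.8% and 12.4% of 32851 windows of this length hold them. No window listed for a member held TATAAA. A match, or its absence, describes only these letters.
Hmga2, chr10:120476470-120476719: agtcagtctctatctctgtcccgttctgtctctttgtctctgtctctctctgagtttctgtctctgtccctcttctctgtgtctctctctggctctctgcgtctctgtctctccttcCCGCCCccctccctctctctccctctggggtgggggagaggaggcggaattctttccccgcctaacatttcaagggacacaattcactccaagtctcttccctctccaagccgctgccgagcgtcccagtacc
Igf2bp2, chr16:22163300-22163549: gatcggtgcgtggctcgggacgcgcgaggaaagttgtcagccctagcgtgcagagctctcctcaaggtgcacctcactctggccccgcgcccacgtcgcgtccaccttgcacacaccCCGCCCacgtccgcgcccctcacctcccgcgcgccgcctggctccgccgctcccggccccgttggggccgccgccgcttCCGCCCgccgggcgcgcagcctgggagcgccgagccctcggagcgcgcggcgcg
Lin28a, chr4:134018817-134019066: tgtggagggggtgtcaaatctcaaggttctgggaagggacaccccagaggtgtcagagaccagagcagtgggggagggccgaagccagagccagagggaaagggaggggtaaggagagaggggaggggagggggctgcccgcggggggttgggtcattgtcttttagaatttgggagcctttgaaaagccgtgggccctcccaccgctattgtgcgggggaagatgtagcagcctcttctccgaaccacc
Lin28b, chr10:45470202-45470451: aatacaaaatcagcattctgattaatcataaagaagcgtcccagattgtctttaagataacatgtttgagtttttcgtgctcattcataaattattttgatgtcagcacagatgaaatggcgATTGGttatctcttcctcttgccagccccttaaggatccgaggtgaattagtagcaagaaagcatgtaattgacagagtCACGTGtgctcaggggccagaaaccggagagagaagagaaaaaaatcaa

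The Hmga2 window was 56.4% G and C with 1 GC box (CCGCCC on this strand), and the Igf2bp2 window was 77.2% G and C with 2. Of the windows shown, those of Lin28a and Lin28b lie inside the spans of their genes. The Lin28a window held none of the 4 motifs. The Lin28b window was 39.2% G and C and held 1 E-box and 1 CCAAT box (ATTGG on this strand). The median window was 52.4% G and C. Members not called in wild type held these motifs too. Igf2bp3 had 1 E-box and 1 CCAAT box, Trim71 had 1 GC box, and the Hmga1 windows had 3 or 4 GC boxes.

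Genes with the most similar pattern over the 8 libraries were found by Pearson's r of log2 CPM among genes with a mean of at least 5 CPM. The libraries fall into 2 tissues, so r for a gene with a tissue difference mainly follows that split, and it is given as a description. Hmga2 was nearest to Ptpru, a receptor-type tyrosine phosphatase (r = 0.999), Sfrp1, a secreted Wnt inhibitor (0.999), and Gpc4, a glypican (0.999). Sfrp1 measured a mean of 629 CPM in wild-type forebrain and 129 CPM in wild-type midbrain. Igf2bp2 was nearest to Pgam1, a glycolytic enzyme (0.999), Suv39h1, a histone H3 lysine methyltransferase (0.998), and Socs2 (0.997). Lin28a was nearest to the zinc-finger gene Zbtb16 (0.994), the chloride channel gene Clcn2 (0.990) and Megf11 (0.988). Zbtb16 measured a mean of 17.3 CPM in wild-type forebrain and 62.2 CPM in wild-type midbrain. Lin28b was nearest to Dnajc21 (0.983), Ppp1r9a (0.981) and Clcn2 (0.975). Hmga1 was nearest to its copy Hmga1b (0.987), then Prr7 (0.968) and Sap18b (0.960). Igf2bp1 was nearest to Usp7 (0.982), Emid1 (0.979) and Rapgef1 (0.977), Igf2bp3 to Sos1 (0.930), Zc3h4 (0.922) and Zfp94 (0.897), and Trim71 to U2surp (0.972), Atm (0.940) and Abhd16a (0.932). Among the members themselves, Hmga2 with Igf2bp2 (0.993) and Lin28a with Lin28b (0.966) were the closest pairs, and Lin28a with Hmga2 the most opposed (-0.898).

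The machinery that makes and uses let-7 went both ways between the tissues. Of 15 genes tested, 2 were higher and 3 lower in wild-type forebrain, beside 29.6% of all genes called in either direction, and the median log2 fold change was 0.038. Dicer1, which cuts the precursor, was higher by 0.32 (adjusted p = 0.00145 in edgeR) and Ago2, the slicing Argonaute, by 0.31 (0.0154). Tnrc6b and Tnrc6a, scaffold proteins of miRNA silencing, were lower by 0.37 and 0.21 on the log2 scale, and Ago1 by 0.20. In the knockout libraries 2 of the 15 genes were higher and 3 lower, beside 14.6% and 14.8% of all genes. The 3 lower genes were the same, but only 1 of Dicer1 and Ago2 passed there. Tut4, Tut7 and Dis3l2, which tail and degrade let-7 precursors held by LIN28A, had log2 differences of 0.13, -0.16 and 0.085 and did not pass. Poly(A) libraries do not measure mature miRNAs. Of 13 let-7 and miR-125 rows or host transcripts in the tables, 3 had enough counts to be tested. Mir100hg, a host of let-7a and miR-125b, was lower by 0.28 on the log2 scale in wild-type forebrain (adjusted p = 0.0424 in edgeR), with -0.23 (0.0878) in the knockout libraries. The other 2, Mir99ahg and Huwe1, did not pass.

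Known let-7 targets outside the 8 genes went both ways. Of 19 tested, 2 were higher and 6 lower in wild-type forebrain, beside 14.3% higher and 15.3% lower of all genes. The median log2 fold change was 0.017. These 2 and 6 were called in the same direction in the knockout libraries. The higher pair were Nr2e1, a nuclear receptor of neural stem cells, at 175 ± 0.988 against 50.6 ± 4.88 CPM (SD, n = 2; log2 1.79, adjusted p = 5.78e-08 in edgeR), and Mycn, at 137 ± 2.01 against 73.3 ± 3.14 CPM (log2 0.91, 7.82e-07). The lower genes included Nr6a1, a nuclear receptor of early embryos (log2 -0.89), the insulin signalling genes Irs2 (-0.53) and Igf1r (-0.36), and the cyclin gene Ccnd1 (-0.35). The log2 value of Hmga2, 2.66, was above that of each of these.

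Insulin-like growth factor genes, which include the RNA that gave the Igf2bp family its name, were mostly higher in wild-type forebrain: 7 of 10 higher and 1 lower, median log2 fold change 0.53. Of all genes tested, 14.3% were higher and 15.3% lower. The binding protein gene Igfbp2 was at 470 ± 24.7 against 265 ± 8.19 CPM (SD, n = 2; log2 0.83, adjusted p = 2.76e-05 in edgeR). Igfbp3 (1.14), Igf1 (0.97), the imprinted RNA H19 (0.75), Igfbp4 (0.58) and Igfbp5 (0.37) were also higher. Igf2 itself measured 682 ± 99.5 and 489 ± 113 CPM (SD, n = 2; log2 0.48, adjusted p = 0.0502), just short of the threshold. Among the knockout libraries 4 were higher and 1 lower, beside 14.6% and 14.8% of all genes. There H19 (log2 0.41, adjusted p = 0.0675 in edgeR) and Igf1 (0.061, 0.860) did not pass. Mesenchyme, a known source of Igf1, Igf2 and H19, had markers that differed too: 3 of 8 mesenchyme markers were higher in wild-type forebrain and 0 lower, with sums of 1745 to 2193 CPM there and 1392 to 1945 CPM in wild-type midbrain. Between the knockout tissues 2 of 8 were higher and 0 lower, with a median log2 fold change of -0.076. Their sums were 1242 to 1920 CPM in knockout forebrain and 1768 to 1908 CPM in knockout midbrain. None of these markers was at 0 in any library, and their part in the result was not tested.

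Genes of later progenitors and glia, which usually rise as the Lin28 pathway falls, were also split. Of 13 tested, 6 were higher and 4 lower in wild-type forebrain (median log2 0.56), and in the knockout libraries 6 were higher and 3 lower with a median of -0.017. Of all genes, 14.3% were higher and 15.3% lower in wild type, and 14.6% and 14.8% in the knockout libraries. Hopx (log2 3.33), the nuclear factor Nfix (1.44) and the receptor phosphatase Ptprz1 (1.09) were higher in forebrain. Aldh1l1 (-1.63), Zbtb20 (-1.25) and Fabp7, a radial glia lipid carrier (-1.02), were lower there. Nfix was at 42.4 ± 4.96 against 15.8 ± 3.64 CPM (SD, n = 2; adjusted p = 1.78e-05 in edgeR). Of 6 partners and relatives of TRIM71, 2 were higher and 1 lower in wild-type forebrain, and 3 did not pass (median log2 0.25). The lower gene, Trim2, was at 105 ± 5.16 against 317 ± 21.8 CPM (SD, n = 2; log2 -1.60, adjusted p = 2.20e-08 in edgeR). Cdkn1a, a cell cycle inhibitor that TRIM71 is known to repress, was higher by 0.88 (0.00150) and Shcbp1 by 0.33 (0.0109).

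**Figure D3:**
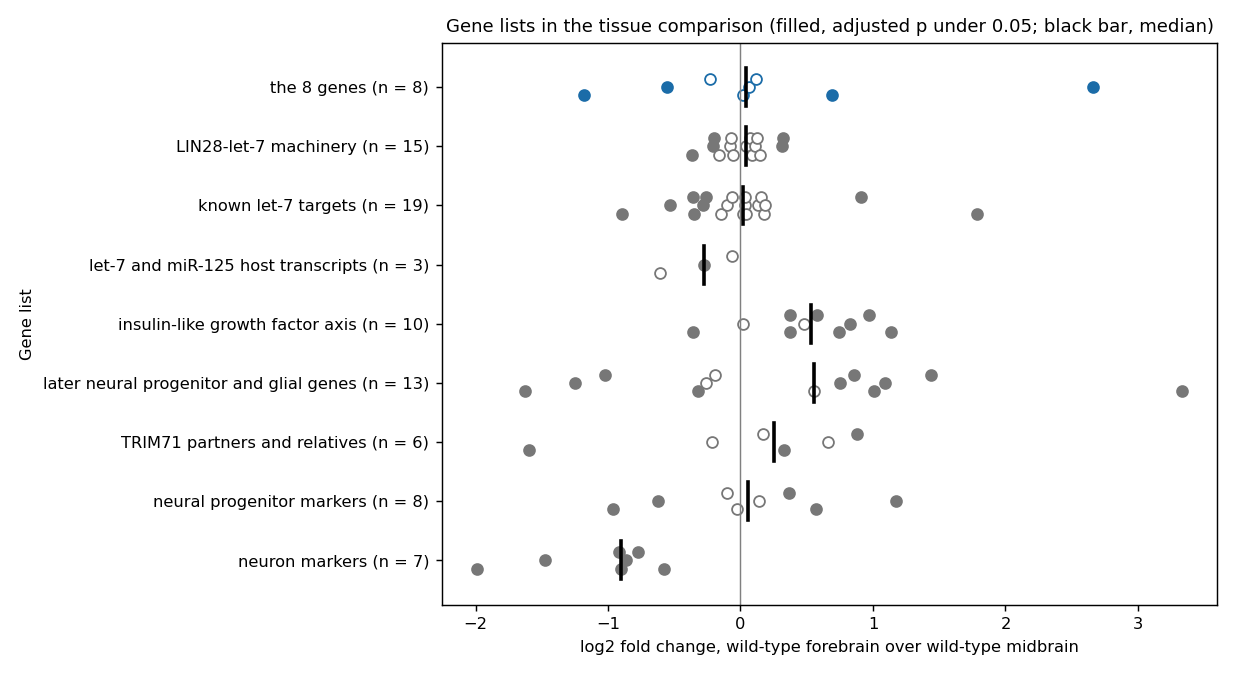
log2 fold change of wild-type forebrain over wild-type midbrain (horizontal axis) for the 8 genes and for each list, 1 point per gene tested, filled where the adjusted p was under 0.05 in edgeR. Black bars are medians; the 7 neuron markers all lie below 0.

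All 7 neuron markers were lower in wild-type forebrain (median log2 -0.90), with sums of 1549 to 1771 CPM against 2974 to 3127 CPM in wild-type midbrain, and 1405 to 1980 against 3258 to 3364 CPM in the knockout libraries. Neural progenitor markers were mixed, 3 of 8 higher (Pax6, Sox2 and Sox1) and 2 lower (Hes5 and Nes), with sums of 4244 to 4369 CPM in wild-type forebrain and 4604 to 4679 CPM in wild-type midbrain. Of 5 macrophage or microglia markers 3 were lower in wild-type forebrain, of 5 endothelial markers 1 was higher, and of 8 erythroid markers 0 passed. The shares of all genes were 14.3% higher and 15.3% lower. Between the knockout tissues, 2 of 8 erythroid markers were higher in forebrain and 0 lower (median log2 0.38). There 3 of 5 macrophage or microglia markers were lower and 0 of 5 endothelial markers passed, beside 14.6% higher and 14.8% lower of all genes. The erythroid sum ranged from 2900 to 5393 CPM within wild-type midbrain alone. Except for En2, no marker of these cell types or regions was at 0 in any library, and their part in the members' tissue differences was not tested.

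Neither enhancer knockout changed any of the 8 genes by the test. For hs654 in midbrain, 0 of 8 members passed in edgeR, 0 had an unadjusted p under 0.05, and 0 passed in DESeq2 or limma-voom. Over all genes the share was 0%, with 609 genes at an unadjusted p under 0.05 and 0 genes in DESeq2 and limma-voom. The knockout libraries lay wholly below the wild-type ones for Lin28a, Hmga1 and Trim71, and 18.8% of all genes did so. The groups did not overlap for 36.7% of all genes, 17.9% with the knockout above. Log2 fold changes ran from -0.28 for Trim71 (95% interval -0.85 to 0.30) to 0.082 for Igf2bp3 (-0.054 to 0.22). Hmga2 was at -0.0062 (-0.24 to 0.23).

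For hs267-853 in forebrain, 0 of 8 members passed in edgeR, DESeq2 or limma-voom and 0 had an unadjusted p under 0.05, against 0.0130% of all genes (2 in edgeR, 13 in DESeq2 and 1 in limma-voom, with 736 at an unadjusted p under 0.05). Lin28a and Lin28b had the largest values, 0.35 (95% interval -0.051 to 0.74) and 0.22 (-0.048 to 0.49) on the log2 scale, with adjusted p of 0.984 for each in edgeR. Their libraries overlapped between genotypes: Lin28a was 11.2 and 14.9 CPM in the knockout and 8.48 and 12.1 CPM in wild type. Igf2bp1 was the only member whose knockout libraries lay wholly above wild type (17.2% of all genes did, 13.9% lay wholly below, and 31.1% did either), by 0.099 (-0.018 to 0.22). Hmga2 was at 0.055 (-0.16 to 0.27). Without replicate 1 of the knockout, which stood apart on the second component, 0 of 8 members passed as well, with Lin28a at 0.55, Lin28b at 0.30 and Hmga2 at 0.099. Other libraries moved the Lin28 values as far: Lin28a was at 0.11 without replicate 1 and 0.62 without replicate 2 of wild-type forebrain, and at 0.13 without replicate 2 of the knockout. Lin28b was at 0.015, 0.46 and 0.14 without the same libraries.

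**Figure D4:**
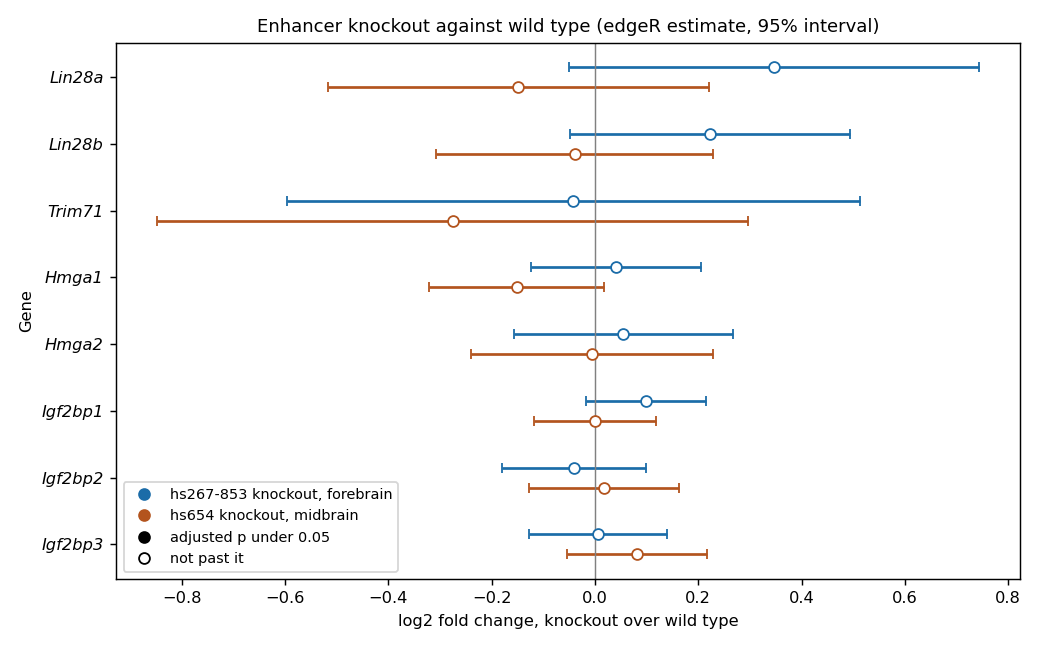
log2 fold change of knockout over wild type (horizontal axis) with 95% intervals for each gene, for hs267-853 in forebrain and hs654 in midbrain. All 16 points are open (not past the threshold) and every interval spans 0.

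With 2 pools per group, intervals were narrow for Igf2bp1, Igf2bp2 and Igf2bp3 and wide for Lin28a and Trim71. Igf2bp1, for example, spanned -0.12 to 0.12 in midbrain. The widths did not simply follow the counts. Hmga2 had 9141 to 11856 counts per forebrain library and an hs267-853 interval of -0.16 to 0.27. Igf2bp2 had 3474 to 4292 counts there and an interval of -0.18 to 0.10.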

How the data were processed

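RNA-seq counts of the 8 libraries were analysed. The authors deposited whole-number counts per gene symbol, without normalization; the submitters' processing notes name STAR, HTSeq, DESeq2 and mm10, while versions, annotation and strand setting are not given in the sources used here. The 5 rows that name no gene were left out; genes took 40.7% to 44.1% of the counts in genes, no feature and ambiguous positions.

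From the counts, edgeR 4.0.16 (R 4.3.3) was run with filterByExpr, TMM scaling (factors 0.978 to 1.01) and a quasi-likelihood model of group means over all 8 libraries, which share 1 estimate of the spread (4 residual and 8.75 prior degrees of freedom). Tests were two-sided, Benjamini-Hochberg adjusted over 15383 genes, threshold 0.05. Standard errors are the log2 fold change over the square root of F, and 95% intervals from the t distribution. Log2 CPM used a prior count of 2. The fit was tested on simulated data.

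Named genes were the 8 members, 3 nearest genes for each by Pearson's r, and up to 6 called genes per list; Igf2, Tut4, Tut7 and Dis3l2 were added for their role after their values were seen. Members and lists were chosen with earlier results of these data known. Counting intervals cover counting error only. No 2 replicates were 1 library deposited again (their counts gave chi-square values of 3.75 to 7.74 times their degrees of freedom). Alternatives were RLE and upper-quartile scaling, 2 other filters, DESeq2 1.42.0, limma-voom (limma 3.58.1), fits of the 4 libraries compared, a replicate block, and each library left out. Exon lengths were not used here, so levels are not compared between genes. Sequences are RefSeq's (GRCm38.p6); 7 of 8 members matched a promoter entry by symbol.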

Additional observations from a re-analysis of the deposited data

How the results depend on the processing

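The tissue differences of Hmga2 and Igf2bp2 in both sets of libraries, and of Lin28a in wild type, kept their direction and their call under all 16 alternatives. With each library left out in turn, the wild-type log2 values were 2.46 to 2.89 for Hmga2, 0.62 to 0.75 for Igf2bp2 and -1.45 to -0.94 for Lin28a. Lin28b in the knockout libraries, not called with all libraries, was called with no filter on low counts (adjusted p = 0.0130 in edgeR), with only the 4 libraries compared (0.0408), and without replicate 1 or 2 of wild-type forebrain (0.0386 and 0.0404). The log2 value of Lin28b was -0.30 with all libraries and -0.30, -0.31, -0.29 and -0.29 in these fits. The wild-type forebrain libraries enter this comparison only through the filter, the scaling and the shared estimate of the spread. Which of these moved the call was not tested.

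When single libraries were omitted, 3 to 4 members were called between the wild-type tissues and 2 to 6 between the knockout tissues (2 without replicate 2 of the hs654 knockout, 3 without its replicate 1 or without replicate 1 of the hs267-853 knockout), and 2816 to 5285 and 2810 to 4358 genes called. No member was called in either knockout comparison under any of the 16 alternatives, or in their difference under the 15 that apply (a fit of 4 libraries cannot give it). Over all genes, 22 were called for hs654 with no filter, 1 with only the 4 libraries compared, and 0 to 8 with a library left out. For hs267-853 the count was 161 with no filter, 13 in DESeq2, 1 in limma-voom, 1 with only the 4 libraries compared, and 1 to 209 with a library left out (209 without replicate 2 of that knockout). For the difference of the knockout effects it was 111 with no filter, 4 in DESeq2 and 0 to 64 with a library left out.

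Values that changed sign passed no test before or after. Under settings that kept all libraries of a comparison they lay close to 0. Trim71 between the knockout tissues was at -0.00902 with RLE scaling, -0.00147 with no filter, -0.0294 with a mean of at least 50 counts, -0.0029 in DESeq2, -0.0442 in limma-voom, and -0.00463 with only the 4 libraries compared. Hmga2 under hs654 was at 0.00355, 0.00312, 0.00492, 0.00101 and 0.0172 with the first 5 of these settings. Igf2bp1 under hs654 was at 0.00976, 0.00955, 0.0114, 0.0100, 0.000793 and 0.00152 with the same 6. Igf2bp3 under hs267-853 was at -0.00243 with a mean of at least 50 counts and -0.00474 with only the 4 libraries compared.

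Leave-one-out ranges that span 0 were, between the wild-type tissues, -0.041 to 0.074 for Igf2bp3 and -0.62 to 0.099 for Trim71, and between the knockout tissues -0.32 to 0.28 for Trim71. Under hs654 they were -0.10 to 0.033 for Lin28b, -0.20 to 0.21 for Hmga2, -0.039 to 0.047 for Igf2bp1 and -0.041 to 0.078 for Igf2bp2. Under hs267-853 they were -0.085 to 0.15 for Hmga1, -0.027 to 0.14 for Hmga2, -0.092 to 0.012 for Igf2bp2, -0.046 to 0.059 for Igf2bp3 and -0.37 to 0.36 for Trim71. For the difference of the knockout effects they were -0.26 to 0.16 for Hmga2, -0.00014 to 0.12 for Igf2bp2 and -0.63 to 0.091 for Trim71.

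No general pairing of libraries by the replicate numbers was seen: correlations of same-numbered deviations were -0.00509 to 0.157 over 11887 genes. With 2 libraries per group, these values cannot exclude a pairing that touched part of the genes. With the replicate number as a block, the members called stayed at 4 and 5 between the tissues and 0 in the knockout comparisons, Trim71 between the knockout tissues was at -0.0270 and Hmga2 under hs654 at 0.00377. Trim71 and Lin28a had the lowest counts of the 8 genes; how much depth and how much the spread between pools limits their precision was not tested.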
